A study of Mus musculus with 3 samples.

Results

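The nuclear lamins and the proteins that tether them to the nuclear envelope were described in undifferentiated F9 cells, a mouse embryonal carcinoma line. The 10 genes were taken by name as a family, with earlier results of these data known but by no threshold on a measured value: the lamin genes Lmna, Lmnb1 and Lmnb2, the lamin B receptor gene Lbr, the LEM-domain genes Emd and Tmpo, the SUN-domain genes Sun1 and Sun2, and the nesprin genes Syne1 and Syne2. All 10 were measured, by 28 of the 45101 probe sets of the Affymetrix Mouse Genome 430 2.0 array. They are 10 of 18193 genes with a probe set of their own. A probe set is a group of short probes designed against 1 transcript sequence.

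The study holds 3 arrays of 1 group, each hybridised with total RNA of F9 cells and labelled replicate 1, 2 or 3. The culture surface was coated with 0.2% gelatin, the medium was DMEM with 10% fetal calf serum, and RNA was taken at about 80% confluence. No treated or differentiated cells are among the samples, so each probe set was compared with background on the same array. Nothing in the labels ties the replicates to separate cultures. The p-values then measure only the spread between these arrays, and that spread may be technical.

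The nuclear lamina is a meshwork of intermediate filaments under the inner nuclear membrane. B-type lamins stay farnesylated and membrane-bound and are made by nearly all cells. A-type lamins, lamin A and lamin C, come from Lmna by alternative splicing; in mouse embryonal carcinoma and embryonic stem cells they are known to be scarce and to accumulate with differentiation. Lbr and the A-type lamins are known as alternative tethers of heterochromatin to the nuclear periphery, with Lbr the tether of early cells. SUN proteins of the inner membrane bind nesprins of the outer membrane, and this LINC complex couples the nucleus to the cytoskeleton.

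The background threshold of each array was the 95th percentile of 127 probe sets for olfactory, vomeronasal and taste receptors and keratin-associated proteins, genes with narrow expression. The thresholds were signals of 44.6, 46.1 and 43.2 for replicates 1, 2 and 3. The height of a probe set is its log2 signal minus the log2 threshold of the same array. A probe set was called above background when limma's one-sided test of that height gave a Benjamini-Hochberg adjusted p under 0.05 over all probe sets. Probe affinity differs between probe sets, so each gene was set against background and not against another gene. A probe set that was not called is not thereby shown to lack its transcript.

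Of the 10 genes, 9 were above background and Syne1 was not, when each gene was represented by its probe set with the highest mean log2 signal. By that rule 51.1% of all named genes outside the background families were called. The median height was 3.40 for the 10 genes and 0.72 for all those genes. The 10 genes have 28 probe sets, against 34945 for all 18193 genes. A highest value taken over more probe sets tends to be higher, and this comparison did not match their number. Of the 28 probe sets, 16 were called, against 38.2% of all probe sets on the array. In RNA from a whole culture, fewer expressing cells and less RNA per expressing cell cannot be told apart. Markers of undifferentiated embryonal carcinoma fitted the label, with 8 of 8 called. Of 10 endoderm markers only Lamb1 was called, of 9 fibroblast markers only Thy1, and of 6 muscle markers 0. An unadjusted limma p under 0.05 was found for 3 endoderm, 1 fibroblast and 1 muscle marker. The summed marker signals spanned 48021 to 49919 for embryonal carcinoma, 519 to 648 for endoderm, 274 to 323 for fibroblasts and 164 to 219 for muscle. The part of other cells in the signals below was not tested.

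**Figure D1:**
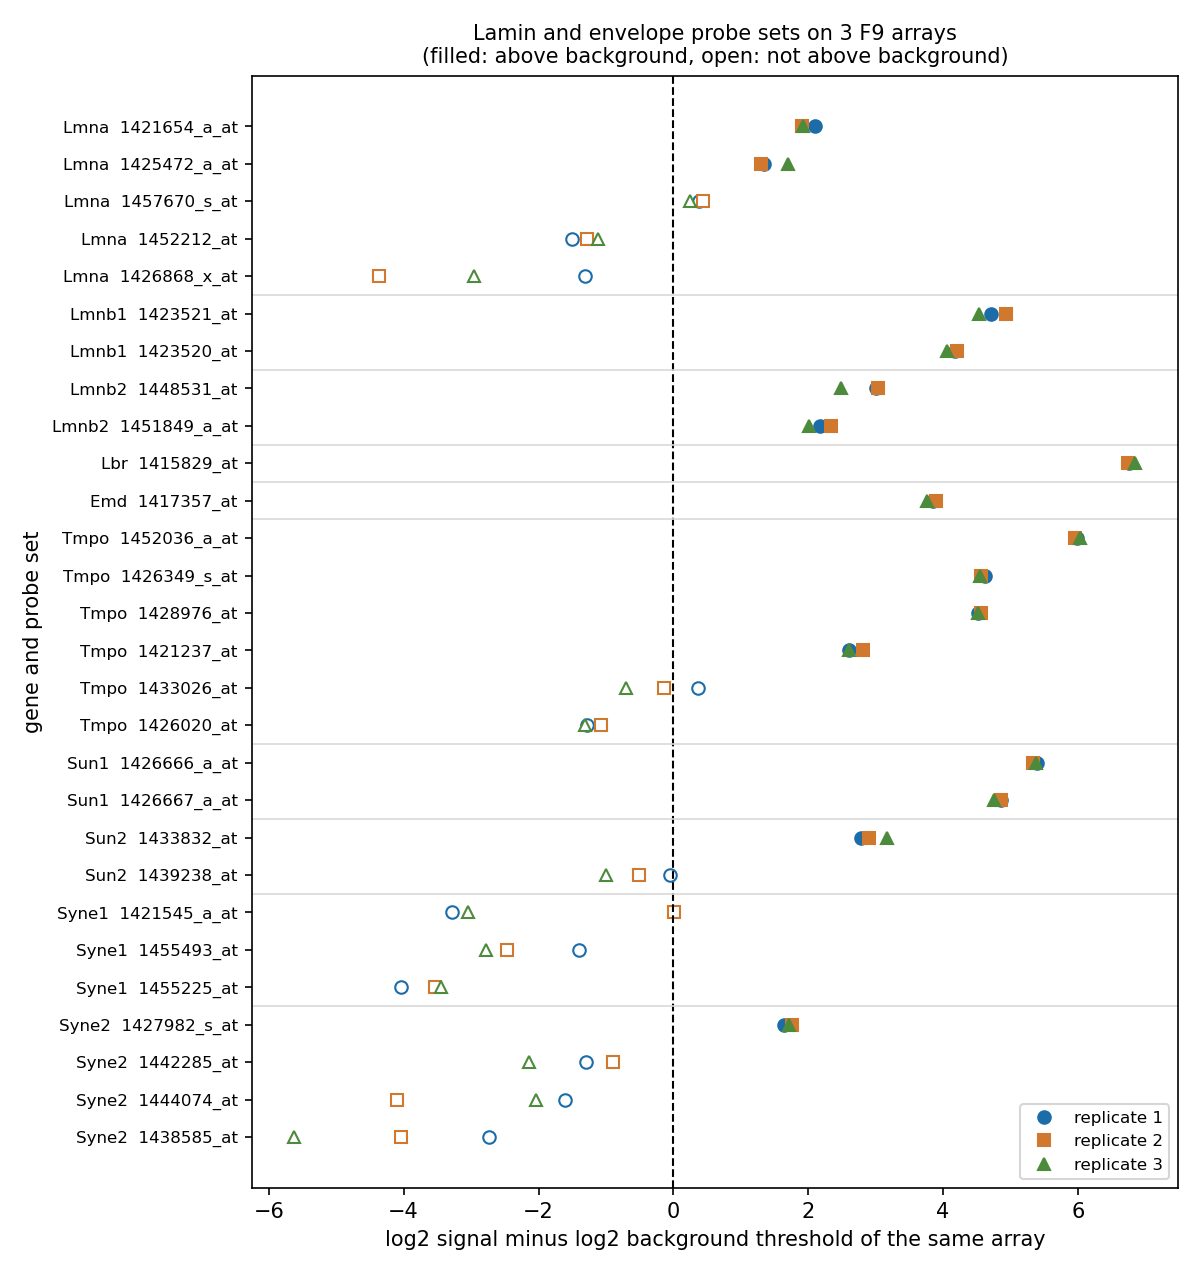
Height over background of all 28 probe sets of the 10 genes. The x axis is the log2 signal minus the log2 background threshold of the same array, with the dashed line at the threshold; circles, squares and triangles are replicates 1, 2 and 3, and filled symbols mark the 16 probe sets called above background. Lbr stands furthest right, near 6.78, and every Syne1 symbol but 1 lies left of the line.

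Lmna, the A-type lamin gene, was above background by 2 of its 5 probe sets. Probe set 1421654_a_at had signals of 191, 173 and 163 on replicates 1, 2 and 3. Its mean was 176 ± 14.4 (SD, n = 3), a height of 1.98 with a 95% interval of 1.62 to 2.33 (limma adjusted p = 0.000582). The second, 1425472_a_at, had signals of 113, 113 and 141. Its height was 1.45, with a 95% interval of 1.00 to 1.89 (limma adjusted p = 0.00254). All 3 arrays lay above the threshold for both of these probe sets.

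The other 3 Lmna probe sets were not called. Probe set 1457670_s_at lay just over the threshold on every array, at 58.2, 62.6 and 51.2, with a height of 0.36 and a limma adjusted p of 0.0603. The signals of 1452212_at were 15.7, 19.0 and 19.8. Those of 1426868_x_at were 18.0, 2.23 and 5.57. These last probe sets were below the threshold on all 3 arrays and are annotated to the same source sequence. The suffix _a_at marks probes shared by transcripts of 1 gene, _s_at probes shared by transcripts of different genes, and _x_at probes that may cross-hybridise. The Lmna call therefore depends on which probe set stands for the gene: with the suffix preferred in the order _at, _a_at, _s_at, _x_at, Lmna was represented by 1452212_at, at a height of -1.30, and was not called.

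The B-type lamin genes were above background by each of their probe sets. Lmnb1, which encodes lamin B1, had signals of 1167, 1414 and 997 on probe set 1423521_at. Its height was 4.73, with a 95% interval of 4.30 to 5.15 (limma adjusted p = 0.000141). Its other probe set, 1423520_at, had signals of 802, 849 and 721 and a height of 4.15.

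Lmnb2, which encodes lamin B2, had signals of 358, 380 and 241 on probe set 1448531_at. The height was 2.84, with a 95% interval of 2.30 to 3.38 (limma adjusted p = 0.000679). On 1451849_a_at the signals were 201, 233 and 174, a height of 2.17. All 4 B-type lamin probe sets were lowest on replicate 3 and highest on replicate 2, and none came near the threshold on any array.

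Lbr had the highest height of the 10 genes. Its protein binds B-type lamins and heterochromatin protein 1 at its nucleoplasmic end, and its membrane part is a sterol reductase. Its only probe set, 1415829_at, had signals of 4800, 4959 and 4989. The mean was 4916 ± 101 (SD, n = 3) and the height 6.78, with a 95% interval of 6.45 to 7.11 (limma adjusted p = 0.000109). Set side by side, the heights were 1.98 for Lmna, 2.84 for Lmnb2, 4.73 for Lmnb1 and 6.78 for Lbr. Probe affinities enter this order, so it does not rank the transcripts by abundance.

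The LEM-domain genes encode proteins whose LEM domain binds the DNA-bridging protein Banf1. Emd, which encodes emerin of the inner nuclear membrane, had signals of 646, 685 and 588 on its only probe set, 1417357_at. Its height was 3.84, with a 95% interval of 3.51 to 4.17 (limma adjusted p = 0.000133).

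Tmpo gives rise, by splicing, to the family of lamina-associated polypeptides 2, some membrane-bound and at least 1 nucleoplasmic form that binds A-type lamins. Of its 6 probe sets 4 were called. The highest, 1452036_a_at, had signals of 2812, 2860 and 2818 and a height of 5.99, with a 95% interval of 5.66 to 6.31 (limma adjusted p = 0.000109). Probe sets 1426349_s_at and 1428976_at had mean signals of 1064 ± 50.9 and 1032 ± 52.2, and 1421237_at of 287 ± 33.2 (SD, n = 3 each). The probe sets that were not called had signals of 57.2, 41.8 and 26.5 for 1433026_at and of 18.4, 21.9 and 17.3 for 1426020_at. The first of them exceeded the threshold on replicate 1 alone, and the second on no array.

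Sun1 and Sun2 encode the SUN-domain side of the LINC complex. Both Sun1 probe sets were called. On 1426666_a_at the signals were 1866, 1867 and 1797, a height of 5.37 with a 95% interval of 5.05 to 5.69 (limma adjusted p = 0.000109). On 1426667_a_at they were 1293, 1338 and 1162, a height of 4.82.

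Sun2 was called on 1 of 2 probe sets. The signals of 1433832_at were 307, 344 and 389, a height of 2.95 with a 95% interval of 2.53 to 3.37 (limma adjusted p = 0.000335). The other, 1439238_at, had signals of 43.0, 32.4 and 21.5 and stayed below the threshold on all 3 arrays.

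The nesprin genes Syne1 and Syne2 encode the KASH-domain side of the LINC complex, in giant actin-binding forms and many shorter ones. None of the 3 Syne1 probe sets was called by limma, and 0 had an unadjusted p under 0.05. On 1421545_a_at the signals were 4.58, 46.4 and 5.21, so that replicate 2 alone reached the threshold of its array. The height was -2.11, and its 95% interval, -4.68 to 0.46, included the threshold. Probe set 1455493_at had signals of 16.8, 8.38 and 6.28, and 1455225_at of 2.71, 3.996 and 3.97.

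Syne2 was called on 1 of 4 probe sets. Probe set 1427982_s_at had signals of 138, 156 and 141, a height of 1.70 with a 95% interval of 1.37 to 2.03 (limma adjusted p = 0.000719). The mean signals of the other 3 were 17.6 ± 7.46 for 1442285_at, 9.26 ± 6.04 for 1444074_at and 3.46 ± 2.95 for 1438585_at (SD, n = 3 each). All 3 arrays were below the threshold for each of these. The one called probe set is an _s_at type. Without the _s_at and _x_at probe sets Syne2 lay at a height of -1.44 and was not called.

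Probe sets of the same gene disagreed for 4 of the 8 genes that have several: Lmna, Tmpo, Sun2 and Syne2. Such disagreement was found for 39.8% of all named genes that have several. Represented by their lowest probe set, 5 of the 10 genes were called (Lmnb1, Lmnb2, Lbr, Emd and Sun1), against 31.3% of all named genes by that rule. With the probe set chosen by suffix 7 were called, against 48.2%. The 3 not called were Lmna, Syne1 and Syne2. Among the 17 probe sets with the plain suffix _at 8 were called, and among the 7 with _a_at 6 were, against 32.4% and 64.7% of all probe sets of those types.

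**Figure D2:**
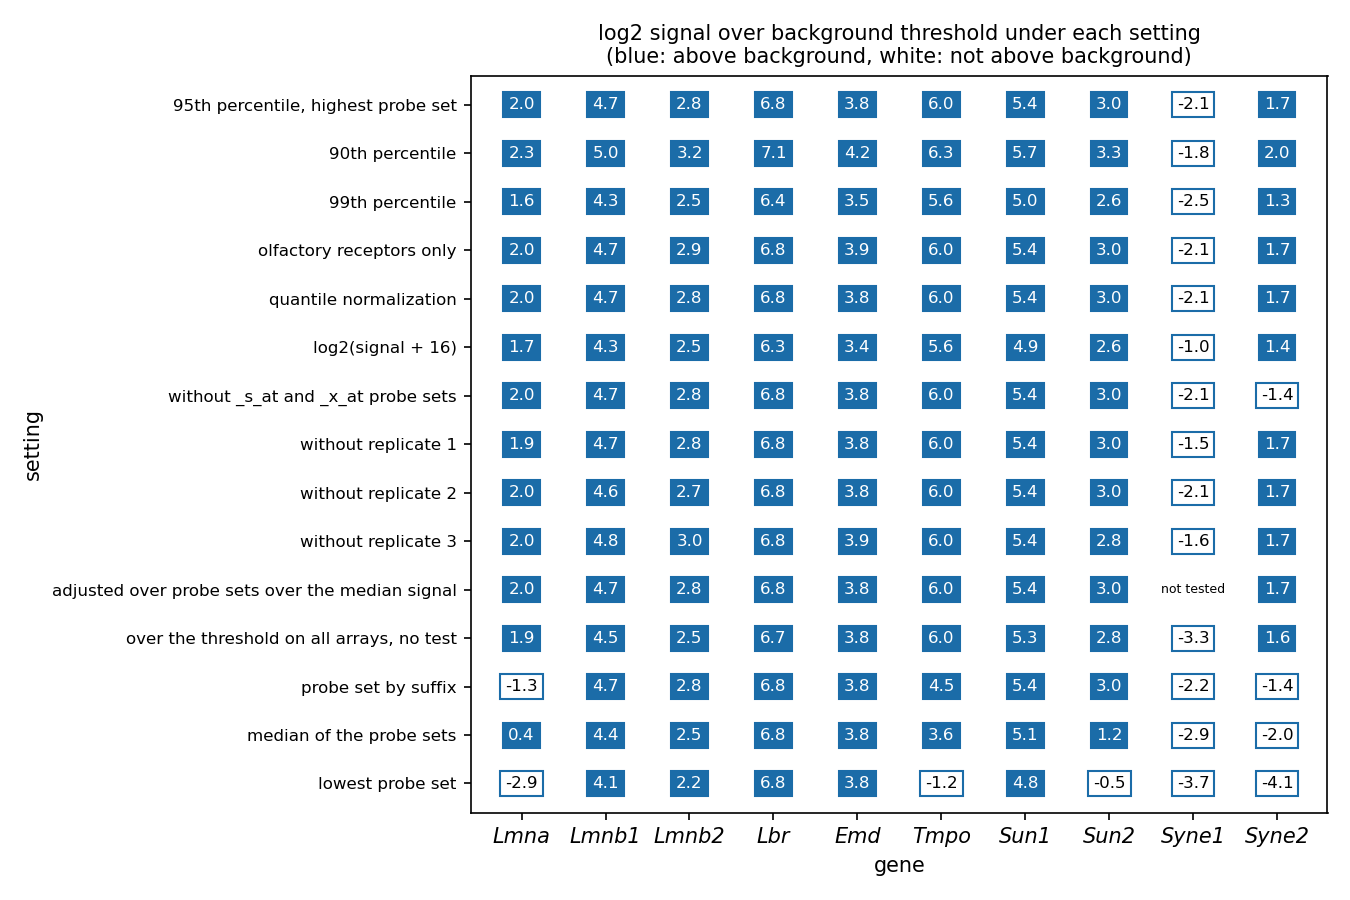
Height over background of each gene (columns) under each processing setting (rows). Cells give the log2 signal over the threshold; blue cells are above background and white cells are not. Lmnb1, Lmnb2, Lbr, Emd and Sun1 are blue in every row, and Syne1 in none. In the row with no test, cells give the value of the lowest array.

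The log2 signals of the 16 called probe sets ranged over a median of 0.23 between the highest and lowest array, against 0.25 for all 17211 called probe sets. The narrowest range was that of Tmpo probe set 1452036_a_at, at 0.024. The widest was that of Lmnb2 probe set 1448531_at, at 0.66, wider than 92.9% of all called probe sets. Lmnb1 probe set 1423521_at followed at 0.50, wider than 84.4%.

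Replicate 3 was the lowest array for 11 of the 16 called probe sets, replicate 1 for 5 and replicate 2 for 0. Over all called probe sets, replicate 3 was lowest for 37.3%. The median of replicate 3 minus the mean of the other arrays was -0.14 on the log2 scale for the 16 probe sets, and 0.00083 for all called probe sets. Probe set 1425472_a_at of Lmna, 1415829_at of Lbr and 1433832_at of Sun2 went the other way and were highest on replicate 3. With 1 group of 3 arrays these differences have no test, and probe sets of the same gene are not independent.

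**Figure D3:**
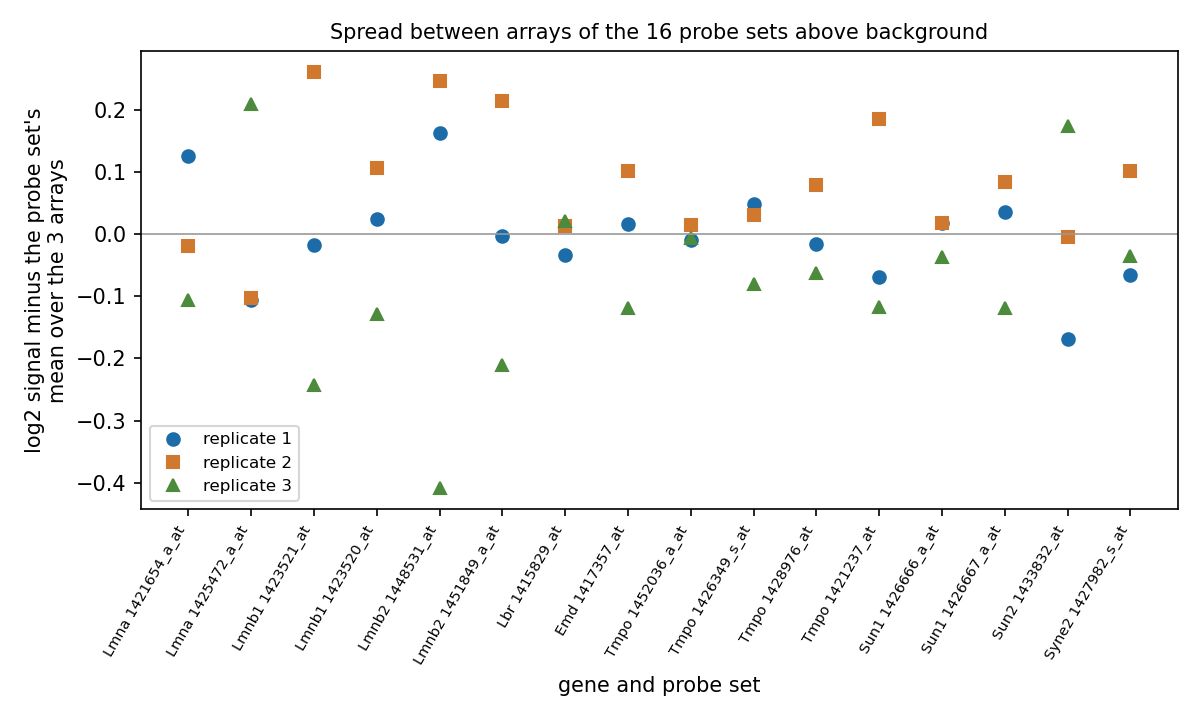
Spread between arrays of the 16 called probe sets. The y axis is each array's log2 signal minus the mean of the 3 arrays for that probe set; circles, squares and triangles are replicates 1, 2 and 3. Replicate 3 lies lowest for 11 probe sets, the furthest being -0.41 for Lmnb2 probe set 1448531_at.

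Other genes of the lamina and envelope were given by 32 further genes in 6 groups, and 24 of them were above background. This list too was drawn up with earlier results of these data known, so its count is a description. The same rule called 51.1% of all named genes, and the median height was 2.70 for the 32 genes. The 5 lamin processing enzymes were all called. Fnta and Fntb, the subunits of farnesyltransferase, stood at heights of 5.93 and 2.83. Rce1 and Zmpste24, proteases that trim the farnesylated end, stood at 3.34 and 4.25, and Icmt, which methylates it, at 2.86. Zmpste24 also makes the last cut that turns prelamin A into lamin A. Fntb had signals of 380, 405 and 206, lowest on replicate 3.

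Of the other LEM-domain genes and their partner, 5 of 6 were called. Banf1 stood at a height of 7.14, with signals of 6250, 6293 and 6304. Lemd2 (1.73), Lemd3 (2.83) and Ankle2 (2.78) were called, and so was Ankle1 (0.97). Lemd3 was called on only 1 of its 3 probe sets, and Ankle2 and Banf1 each on 3 of 3. Lemd1, which in mice is known mainly from the testis, had a height of -0.49 and was not; another 2 probe sets list it beside other genes and were not used.

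The other SUN and KASH genes had the fewest calls, 1 of 6. Sun3 (-2.26), Spag4 (-1.52) and Sun5 (-1.30), SUN proteins known from male germ cells, were not called. Nor were the nesprin genes Syne3 (-1.14) and Syne4 (0.47). Lrmp, a KASH-related membrane protein best known from lymphocytes, was called at 0.85. Its limma adjusted p was 0.0157, and 0.0669 without replicate 1, when the call was lost.

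All 4 genes of the torsin system, an ATPase with its activators in the envelope lumen, were called: Tor1a (2.99), Tor1b (3.47), Tor1aip1 (1.55) and Tor1aip2 (5.33). Among other inner nuclear membrane genes 5 of 6 were called. These were Nrm (2.58), Tmem43 (2.44), Tmem201 (2.95), Nemp1 (2.62) and Tm7sf2 (2.48), the last a sterol reductase related to Lbr. Nrm and Tmem43 were each called on 1 of 2 probe sets, and Tmem201 on 2 of 3. Nemp2 had signals of 119, 78.5 and 34.4, a height of 0.62, and was not called.

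Of 5 chromatin partners 4 were called. Cbx1 and Cbx5, heterochromatin protein 1 genes whose products bind Lbr, stood at 5.90 and 5.15. Cbx1 was called on 3 of its 5 probe sets, and Cbx5 on 4 of 5. Hdac3, a deacetylase that binds emerin and Tmpo products, stood at 4.54, and Vrk1, the kinase that releases Banf1 from DNA, at 4.37. Cbx3, the third heterochromatin protein 1 gene, lay at the threshold with signals of 29.0, 61.6 and 49.7 on the 1 probe set that names it alone. The other 4 probe sets that list Cbx3 also list another gene and were not used.

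**Figure D4:**
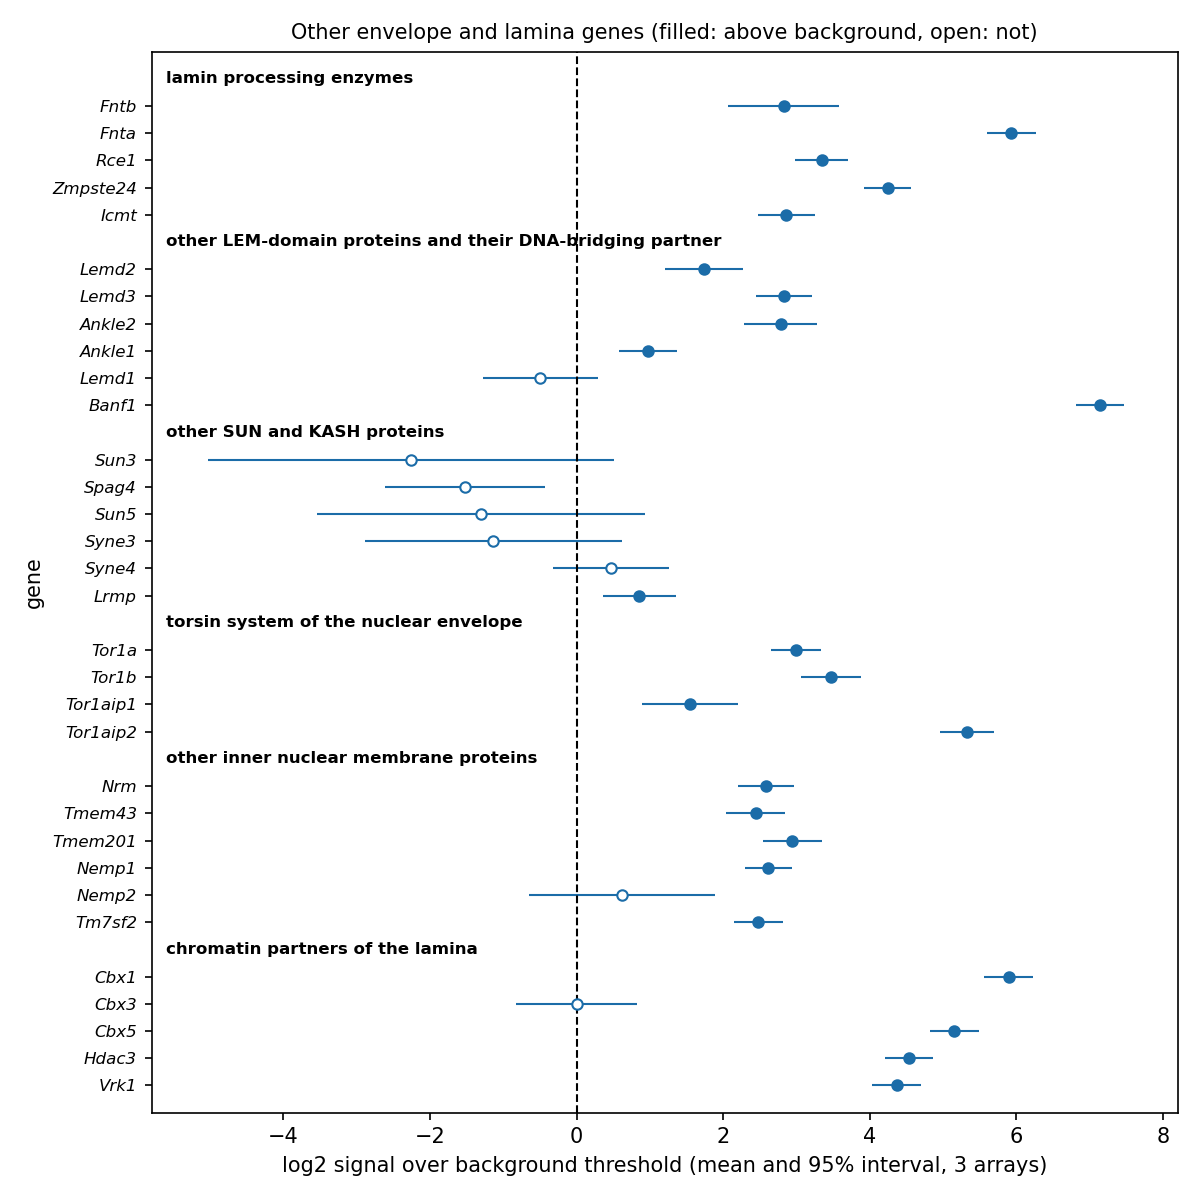
Height over background of 32 other envelope and lamina genes in 6 groups. Points are means of the log2 signal over the threshold on 3 arrays and bars are limma's 95% intervals; filled points are called above background. Filled points make up all of the processing enzymes and torsin genes and 1 of 6 other SUN and KASH genes.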

How the data were processed

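Total RNA of F9 cells was hybridised to 3 arrays. The authors deposited an intensity on a linear scale for each probe set and array. Per the submitters' processing notes the software was GCOS 1.4; the summary algorithm, presence calls and genome build were not given in the sources used here. After trimming 2% at each end, the mean was 250.002 on every array, so the deposited intensities had been scaled, and no further normalization was applied. Scaling hides changes in total RNA.

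Symbols came from a 2016 platform annotation: 34945 probe sets had 1 symbol, 932 several and 9160 none (64 controls apart). Of these, 34754 had a gene identifier found in RefSeq's GRCm38.p6 table, and 0 symbols needed updating.

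Heights over the threshold were fitted with limma 3.58.1 in R 4.3.3 (lmFit, eBayes, one-sided, Benjamini-Hochberg over all 45101 probe sets) and tested on simulated data. The simulated spread was taken from called probe sets. Their median log2 SD was 0.13, against 0.75 for probe sets not called, so the simulation does not cover that wider spread. All 10 genes, all their probe sets and all 32 other genes are named. The genes and lists were chosen with earlier results of these data known. The number of arrays limits the precision. Alternatives changed the threshold, background genes, normalization, log offset, probe set choice, filter, form of the call and replicates. With 3 samples of 1 group, no gene was sought for a pattern across samples like that of a member, and the spread between arrays was described without a test.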

Additional observations from a re-analysis of the deposited data

How the results depend on the processing

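The 10 genes gave 9 calls with 90th or 99th percentile thresholds, olfactory receptors only, quantile normalization, log2(signal + 16), any 1 replicate left out, or signals over the threshold on all arrays with no test. Those settings called from 46.2% (99th percentile) to 53.8% (no test) of all named genes. With adjustment over probe sets brighter than the median, 9 of 9 tested genes were called (Syne1 was not tested), as were 84.2% of all genes tested there. The count was 8 without _s_at and _x_at probe sets (50% of all genes) or with the median of a gene's probe sets (43.6%), 7 by suffix and 5 by the lowest probe set. By suffix, Lmna lay at -1.30 and Syne2 at -1.44, as Syne2 did without _s_at and _x_at probe sets. With the median, Syne2 lay at -2.00, Lemd3 at -0.18 and Nrm at -0.18, and Lmna at 0.36 (limma adjusted p = 0.0402, over genes). That Lmna median is the height of 1457670_s_at, which was not called when adjusted over all probe sets (limma adjusted p = 0.0603). With the lowest probe set, heights were -2.88 for Lmna, -1.22 for Tmpo, -0.52 for Sun2, -4.13 for Syne2, -2.15 for Lemd3, -2.94 for Nrm, -1.54 for Tmem43, -0.22 for Tmem201 and -2.36 for Cbx5, and Cbx1 (0.43) was not called. These follow from which probe set stands for the gene. Of the 28 probe sets, only Lmna 1457670_s_at changed its call: it passed with the 90th percentile (limma adjusted p = 0.0166), the offset, the filter and the form without a test. Its limma adjusted p was 0.113 to 0.226 with 1 replicate left out. The list of 32 other genes gave 18 calls with the lowest probe set, when 31.3% of all genes were called, and 25 with the 90th percentile or with no test, when 53.4% and 53.8% were. Of these, 31 were measured without _s_at and _x_at probe sets and 27 tested among those brighter than the median. Ankle1 (0.59) and Lrmp (0.47) lost theirs at the 99th percentile, and Lrmp also without replicate 1 (0.91). Cbx1 also lost its call by suffix (0.43) and Tmem43 with the median (0.45). Syne4 (0.79) gained one at the 90th, and also with no test, where its lowest array lay 0.13 over the threshold. No paired analysis was possible because the 3 arrays form 1 group.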
